A study of Mus musculus with 6 samples.

Results

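Mitochondria form a network that is joined by fusion and divided by fission, and their inner membrane is folded into cristae that hold the respiratory chain. The outer membranes are fused by the mitofusins MFN1 and MFN2, the inner membranes by OPA1, and division is carried out by DRP1 (encoded by Dnm1l), which is recruited to the outer membrane by adaptors such as MFF and FIS1. In brown and beige adipocytes, which burn fuel to make heat through UCP1, mitochondria are numerous and their cristae are dense. The 10 genes described here are the fusion genes Opa1, Mfn1 and Mfn2, the fission genes Dnm1l, Fis1 and Mff, the cristae genes Immt and Chchd3, and the inner membrane genes Oma1 and Letm1. They were taken by symbol from a table of 16538 genes, and all 10 were present and passed the filter on low values.

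RNA-Seq, in which reads are assigned to genes and counted, was done on mouse inguinal white adipose tissue (iWAT), the fat beneath the skin of the groin, where beige adipocytes form in the cold. The 6 samples were 3 of control mice (labelled wt, and described as fl/fl in the paper) and 3 of NRG4-AKO mice, in which Adiponectin-Cre deletes the floxed Nrg4 gene in adipocytes. RNA of 2 mice was pooled in each sample. The labels put both groups at 8°C for 10 days, and the text of the paper gives a longer period. The mice were fed chow, and no age is given in the sources used here. The comparison asks what loss of adipocyte NRG4, a secreted ligand of the EGF family, does to cold-acclimated iWAT.

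Reads on the listed genes numbered from 17570335 to 18128524 in the control samples and from 17995218 to 18373707 in AKO. Nrg4, measured over all its exons, had from 3092 to 3128 normalized counts in control and from 2577 to 2691 in AKO. This was a log2 difference of -0.24 (adjusted p = 0.298 from limma), and reads of the deleted part were not counted apart from the rest. In the paper, qPCR found almost no Nrg4 mRNA in AKO iWAT. Adipocyte markers were abundant in every sample, and the summed level of 10 of them was lower in each AKO sample (435613 to 470265 normalized counts) than in each control sample (493500 to 515076). Of these 10 markers 0 had a p under 0.05 before adjustment with limma, 2 were lower without overlap and 1 had a positive log2 difference, and their mean log2 value overlapped between the groups (-0.06). The summed level of 18 skeletal muscle markers ran from 415 to 31118 in control and from 23037 to 133157 in AKO, and that of 11 macrophage markers from 11924 to 16927 and from 14762 to 20240. Of the muscle markers 4 of 18, and of the macrophage markers 5 of 11, had a p under 0.05 before adjustment with limma and were higher in AKO, against 4.41% of all genes tested. For 3 of the muscle markers (Myh1, Myh2 and Mb) the log2 difference was negative. None of the markers was at 0 in all samples. In whole tissue, fewer cells of a type and less RNA per cell cannot be told apart.

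**Figure D1:**
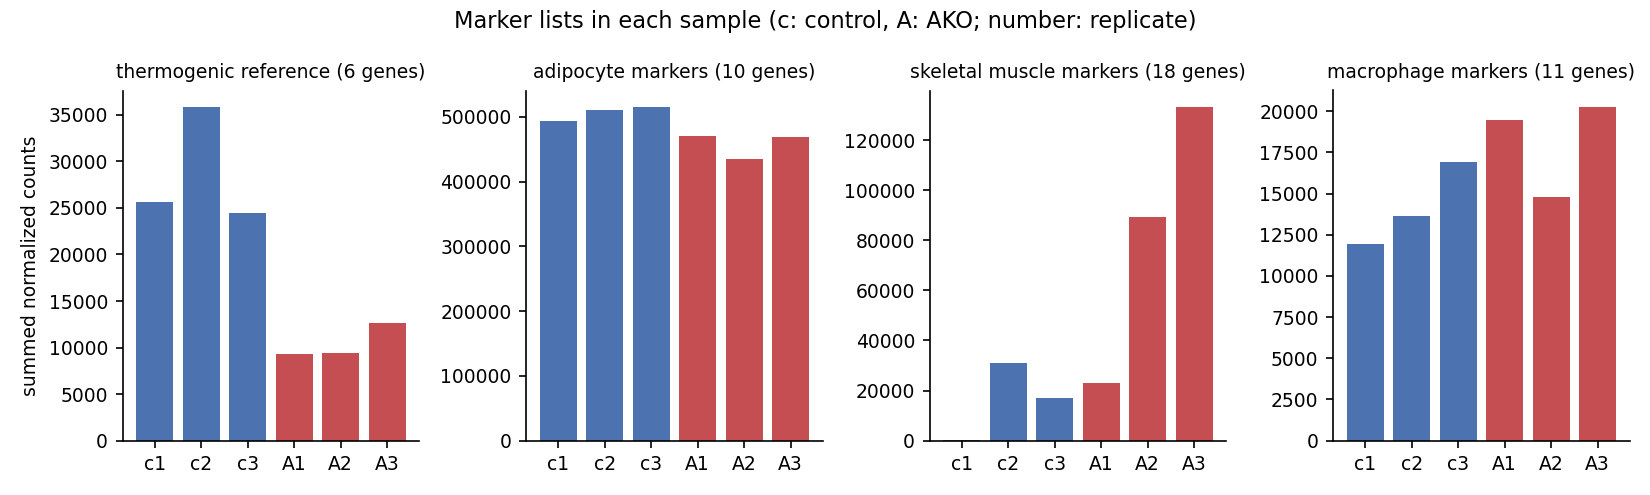
Summed normalized counts (vertical axis) of 4 marker lists in each of the 3 control (blue, c1 to c3) and 3 AKO samples (red, A1 to A3). The sums of the 6 thermogenic genes and of the 10 adipocyte markers separate the groups, whereas muscle markers range from 415 in control replicate 1 to 133157 in AKO replicate 3.

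The letters just before the transcription start are shown for members whose promoters hold a CCAAT box (the site of the factor NF-Y) or the palindrome of NRF1, a regulator of nuclear genes for mitochondria (GCGC, any 2 bases, GCGC), because the CCAAT box was found in members on both sides of the result, those that were lower in AKO and those that were not. Sequences are from RefSeq on GRCm38.p6, written 5′ to 3′ on the strand of the gene, with the match in capitals. The starts are those of RefSeq. In GENCODE M21, the source of gene positions here, Letm1 and Oma1 start further upstream, and their printed letters lie within their annotated exons.
Immt (chr6:71831223-71831252, plus strand): cgcctcctagtcgCCAATcaccgctttact
Chchd3 (chr6:33060325-33060354, minus strand): atccgggtCCAATccagCCAATcctagtgc
Letm1 (chr5:33782754-33782783, minus strand): gggtgccgcagggCCAATgggagccgtgcc
Mfn1 (chr3:32529405-32529434, plus strand): ctcgaagcgtcagCCAATaggagatccgaa
Fis1 (chr5:136953175-136953204, plus strand): actctgctcttcCCAATggagcagctccgg
Opa1 (chr16:29579265-29579294, plus strand): gtggctccccGCGCATGCGCatgtcatccg
Oma1 (chr4:103313813-103313842, plus strand): ggaaaggtgtGCGCCTGCGCggagccggct

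Within 100 bases before a start, searched on both strands, CCAAT occurred in 5 of the 10 genes (Immt, Chchd3, Letm1, Mfn1 and Fis1), against 21.6% of 27025 genes. Chchd3 held it at a pair of places, beginning at positions -86 and -77 from the start. The NRF1 letters occurred in 2, Opa1 and Oma1, against 3.84% of genes. A GC box (GGGCGG) occurred in 8 of the 10 against 27.3%, Mfn2 included, and overlapped no CCAAT or NRF1 match. A gene counted if any of its windows matched, and Mfn2, Mff, Fis1 and Dnm1l had additional windows. The shares per gene are therefore not like for like. Per window, the shares over all windows were 18.9% for CCAAT, 3.33% for NRF1 and 24.7% for the GC box. No match was found for AAGGTCA (ERR, 1.74% of genes), TGACGTCA (CRE, 1.36%) or a motif of YY1 (0.0814%). The windows of the members had a GC content from 55% to 78%, and the median of all 32851 windows was 55%. For Mfn2, the 100 bases before its most upstream RefSeq start are shown because this gene had one of the clearest separations between groups and neither of the printed sites, with its GC box in capitals.
Mfn2 (chr4:147904910-147905009, minus strand): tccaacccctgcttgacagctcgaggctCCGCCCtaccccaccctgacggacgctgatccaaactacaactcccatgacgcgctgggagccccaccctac

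Of the members with CCAAT, Immt, Chchd3 and Letm1 were lower in AKO iWAT, whereas the groups overlapped for Mfn1 and Fis1.

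Values are normalized counts, that is, reads divided by a size factor of the sample. Mfn2, Immt, Chchd3 and Letm1 had their 3 AKO values below their 3 control values, with differences in the mean from -24.3% to -14.0%. The 3 fission genes and Oma1 did not separate the groups, nor did Opa1 and Mfn1. With limma on log2(normalized count + 1), 0 of the 10 genes passed an adjusted p under 0.05 (Benjamini-Hochberg over 13855 genes), where 0.0144% of all genes tested passed. Before adjustment 4 of the 10 had a p under 0.05, all lower in AKO, against 4.69% of all genes tested in that direction. None had such a p for a higher level in AKO, against 4.41%. The groups did not overlap for the same 4 genes, with 8.31% of all genes tested lower and 6.14% higher without overlap. With 1 sample left out, 3 of the 10 had such a p without control replicate 2, without AKO replicate 1 (the AKO sample with the fewest muscle marker counts) and without AKO replicate 3 (the one with the most), and 4 without each of the other samples. The median log2 difference was -0.11 over the 10 genes and 0.01 over all genes tested. Since these 10 genes were chosen with earlier results of the same samples known, these shares are descriptions. The quasi-likelihood test of edgeR on whole reads also called 0 of the 10, and DESeq2 called 1, Letm1.

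**Figure D2:**
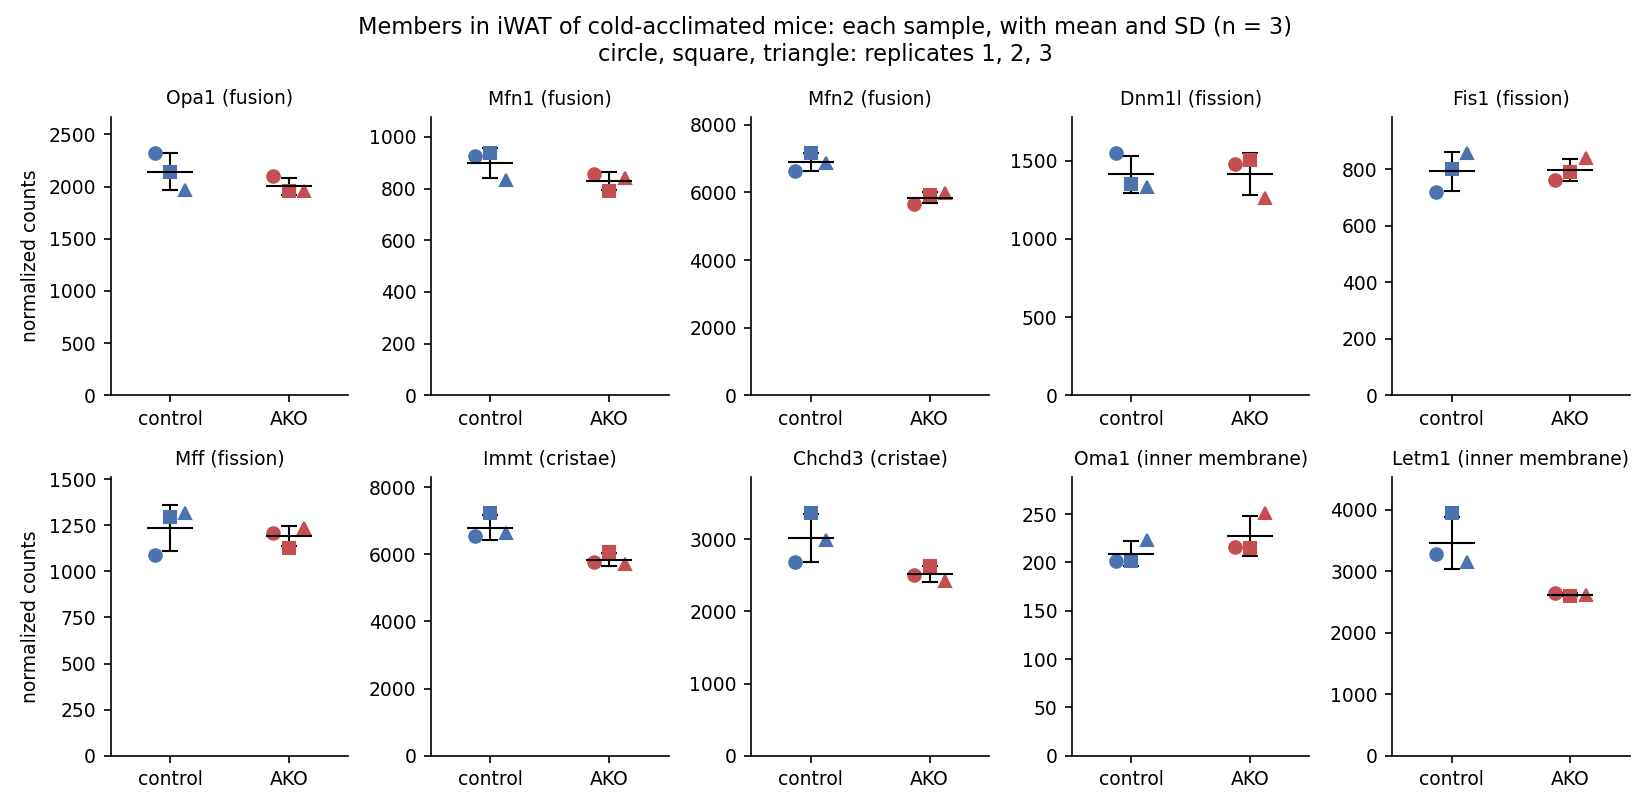
Normalized counts (vertical axes from 0) of the 10 genes in each control (blue) and AKO (red) sample, with the mean and SD of 3 samples. The groups are apart for Mfn2, Immt, Chchd3 and Letm1 and overlap for the other 6 genes.

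Letm1, on chromosome 5 from 33739673 to 33782817 (GRCm38), encodes an inner membrane protein of cation and proton exchange that is needed for normal mitochondrial volume and cristae. Letm1 had 3276, 3940.2 and 3157 normalized counts in control and 2641, 2598 and 2617 in AKO. The means were 3458 ± 422 (SD, n = 3) and 2618 ± 21.5 (SD, n = 3), a difference of -24.3%. The groups did not overlap, with control replicate 2 the highest of all and the AKO samples close together (exact permutation test, p = 0.1, the smallest that 3 against 3 can give). The log2 difference was -0.39 (standard error 0.09, adjusted p = 0.298 from limma). The SD of the AKO samples was below the counting error expected at their mean (50.3), and so understates the error. DESeq2 on whole reads gave -0.40 with an adjusted p of 0.00725, in a test that called 0.757% of its genes lower. Across the 16 alternatives the adjusted p of Letm1 ran from 0.00725 to 0.691, and the log2 difference was -0.30 without control replicate 2 and -0.39 without AKO replicate 3.

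Immt and Chchd3 encode MIC60 and MIC19, which bind each other in the MICOS complex at the necks of the cristae. Immt (chromosome 6, 71831331 to 71877388) had 6539.9, 7222 and 6633 normalized counts in control and 5769.5, 6064 and 5701 in AKO. Its means were 6798 ± 370.0 (SD, n = 3) and 5845 ± 193 (SD, n = 3), and the highest AKO sample lay below the lowest control sample. The log2 difference was -0.22 (standard error 0.07, adjusted p = 0.440 from limma).

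Chchd3 (chromosome 6, 32790976 to 33060260) had 2689, 3359 and 2995 normalized counts in control and 2502, 2636 and 2425 in AKO. The groups were separated by a narrow gap, between control replicate 1 and AKO replicate 2. The log2 difference was -0.25 (standard error 0.09, adjusted p = 0.492 from limma). Its limma p before adjustment was above 0.05 without control replicate 2 (0.0602), AKO replicate 1 (0.0525) or AKO replicate 3 (0.0676), whereas Mfn2, Immt and Letm1 stayed under 0.05 whichever sample was dropped. The ratio of Immt to Chchd3 had a mean of 2.27 ± 0.148 in the control group and 2.32 ± 0.0277 in the AKO group (SD, n = 3 each), with overlap.

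Among the fusion genes, Mfn2 (chromosome 4, 147873599 to 147904704), which also tethers mitochondria to the endoplasmic reticulum, had 6650.3, 7171 and 6862 normalized counts in control and 5657, 5916 and 5973 in AKO. The Mfn2 means of 6894 ± 262 (SD, n = 3) and 5849 ± 168 (SD, n = 3) differed by -15.2%, with no overlap. The log2 difference was -0.24 (standard error 0.06, adjusted p = 0.350 from limma). It stayed between -0.26 and -0.21 when any 1 sample was dropped. Over the alternatives the adjusted p ran from 0.0654, with DESeq2, to 0.714.

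Mfn1 (chromosome 3, 32529465 to 32579239), the other mitofusin, had 927, 938 and 834 normalized counts in control and 856, 791 and 842 in AKO. Its groups overlapped, and the 95% interval of its log2 difference ran from -0.28 to 0.05 around -0.12. The ratio of Mfn2 to Mfn1 was 7.17, 7.65 and 8.23 in control and 6.61, 7.48 and 7.10 in AKO, so the ratios overlapped too. Annotated transcripts of the 2 mitofusins shared 0 stretches of 31 bases, out of 6119 in Mfn1 and 5263 in Mfn2.

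Opa1 (chromosome 16, 29579334 to 29654884), the GTPase of inner membrane fusion and cristae shape, had 2322, 2137 and 1971 normalized counts in control and 2099, 1953 and 1957 in AKO. The ranges overlapped, and the 95% interval of the log2 difference ran from -0.27 to 0.08 around -0.10. Oma1 (chromosome 4, 103313812 to 103371868), the stress-activated protease that cleaves OPA1, was the least abundant of the 10, with 202, 201.1 and 224 normalized counts in control and 216, 215 and 251 in AKO. Its log2 difference of 0.12 had a 95% interval from -0.12 to 0.36. In the control samples the SD of Oma1 between samples (12.8) was below the counting error expected at its mean (14.7), so that this SD understates the error. The ratio of Opa1 to Oma1 overlapped between the groups, at 8.81 to 11.5 in control and 7.81 to 9.72 in AKO.

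None of the fission genes differed beyond the spread between samples. Dnm1l (chromosome 16, 16312230 to 16358959) had 1550.4, 1353 and 1335 normalized counts in control and 1479.8, 1505 and 1259 in AKO. Its log2 difference was 0.00096, with a 95% interval from -0.21 to 0.22, so that smaller differences in either direction were not detectable with these samples. Fis1 (chromosome 5, 136953275 to 136966234) had 721, 800.1 and 858 in control and 762, 792 and 839 in AKO, with an interval from -0.18 to 0.20. Mff (chromosome 1, 82724890 to 82752394) had 1089, 1295 and 1314 in control and 1207, 1129 and 1235 in AKO, with an interval from -0.25 to 0.15. The ratio of Mff to Fis1 had a mean of 1.55 ± 0.0568 in the control group and 1.49 ± 0.0821 in the AKO group (SD, n = 3 each), with overlap. The difference between the fusion and the fission genes was not itself tested, and the ratio of Mfn2 to Dnm1l, chosen after the values were seen, overlapped between groups, with 4.29 to 5.30 in control and 3.82 to 4.74 in AKO. Small parts of the exons of Dnm1l (4.67%), Mff (2.0%) and Immt (1.63%) are shared with genes on the opposite strand, and whether counting used strand is not given in the sources used here.

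**Figure D3:**
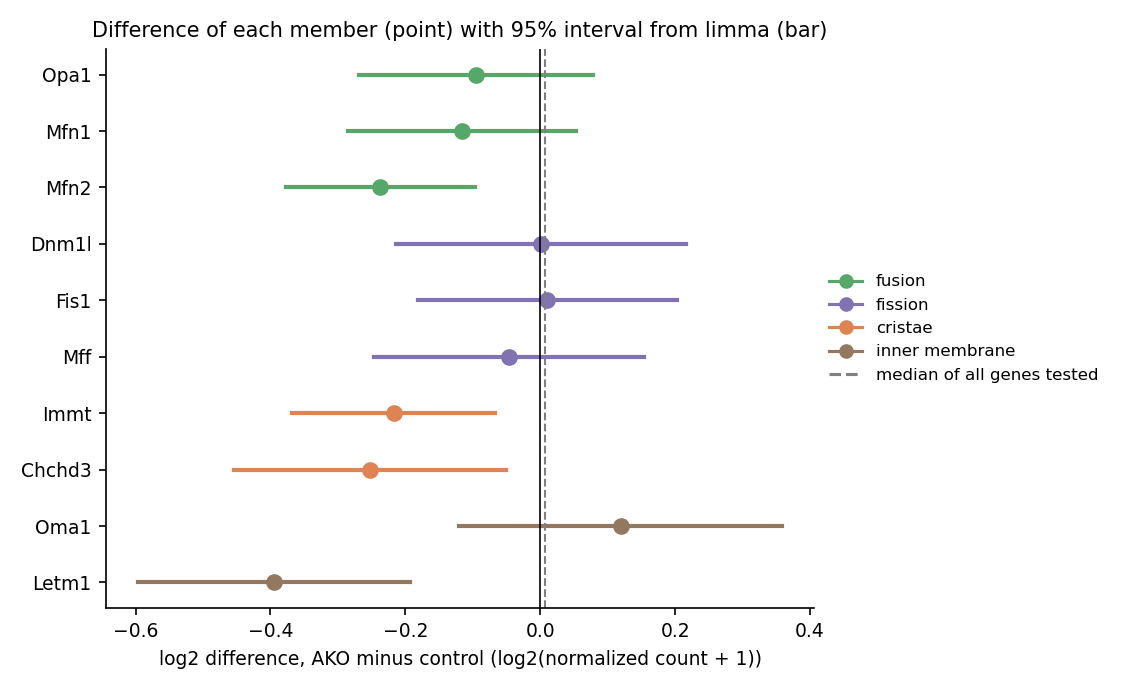
Log2 difference, AKO minus control, of each gene (point) with its 95% interval from limma (bar), colored by role, and the median of all genes tested (dashed line). The intervals of Mfn2, Immt, Chchd3 and Letm1 lie below 0, and those of the other 6 genes include 0.

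Levels were compared between genes per kilobase of the longest principal transcript. In control iWAT the cristae genes came first, with 2492 ± 136 normalized counts per kb for Immt and 1945 ± 216 for Chchd3 (SD, n = 3 each). Mfn2 followed with 1588 ± 60.3 per kb, Fis1 with 1009 ± 87.8, Letm1 with 656 ± 80.0 and Mff with 651 ± 66.0 (SD, n = 3 each). Below them were Dnm1l with 356 ± 30.2, Opa1 with 344 ± 28.2, Mfn1 with 197 ± 12.6 and Oma1 with 109 ± 6.71 (SD, n = 3 each). The ranges of Letm1 and Mff overlapped, as did those of Dnm1l and Opa1, whereas all other neighbors in this order were apart in the control samples. Division by all merged exons, which counts retained introns, put Mfn2 at place 1 and Immt at place 3, and moved Mff from place 6 to place 9. Of the mitofusins, Mfn2 was the more abundant per kb under both lengths. In AKO the ranges of Letm1 (493 to 501 per kb) and Mff (596 to 652 per kb) no longer overlapped.

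**Figure D4:**
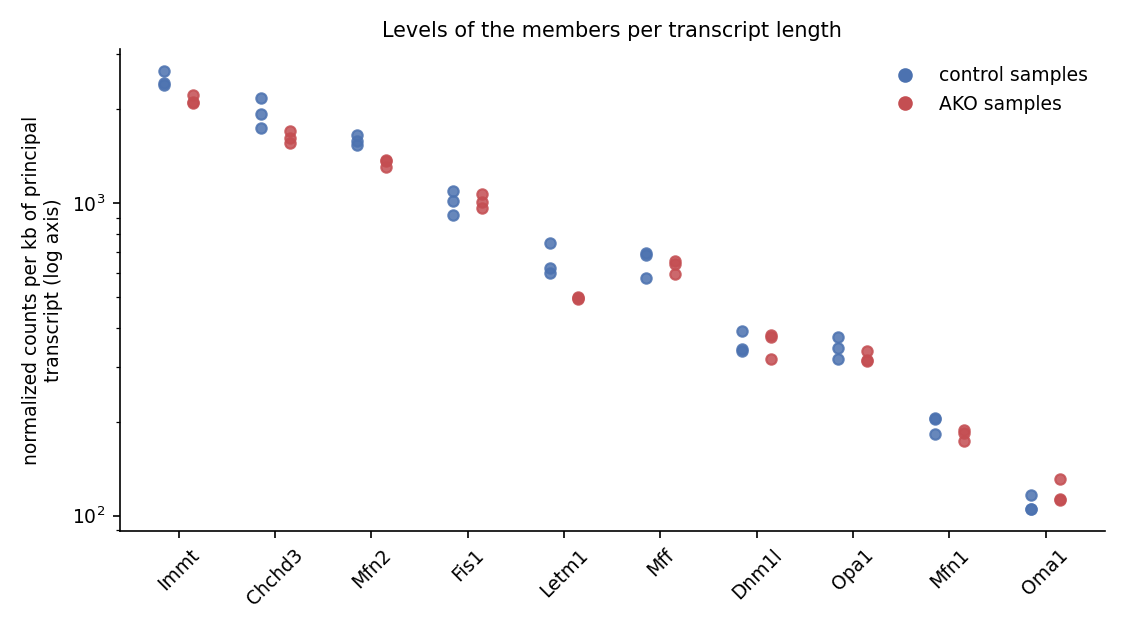
Normalized counts per kb of principal transcript (log axis) for the 10 genes in control (blue) and AKO (red) samples, ordered by the control mean. Immt lies highest, at 2397 to 2647 per kb in control, and Oma1 lowest, at 105 to 117.

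Related genes of mitochondrial shape and membranes, held in 7 lists, were compared in the same way. Of 65 genes tested, 58 had a negative log2 difference, as did 6662 of all 13855 genes tested. Among the 65, 21 had a p under 0.05 before adjustment and were lower (32.3%, against 4.69% of all genes tested), and 0 had such a p and were higher. With limma 0 of them passed the adjusted threshold, and DESeq2 called 3, Letmd1, Ghitm and Crls1. The 21 became 10 without AKO replicate 1, 11 without control replicate 2 and 11 without AKO replicate 3. The median log2 difference of the 65 was -0.13, close to the -0.11 of the 10 genes. As with the 10 genes, the lists were made with earlier results known, and the genes of a list are not independent of each other.

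Among 11 partners of the MICOS complex and the outer membrane sorting machinery all 11 had a negative difference, and 4 had a p under 0.05. These were Mtx2 (log2 difference -0.27), Samm50 (-0.28), Dnajc11 (-0.26) and Apoo (-0.48), of which Samm50 encodes the outer membrane barrel that MICOS contacts. The median of this list was -0.20, near the values of Immt and Chchd3. Among 10 inner membrane proteases and scaffolds, 6 had a p under 0.05, all lower: Afg3l2 (-0.29), Parl (-0.21), Phb2 (-0.21), Spg7 (-0.16), Lonp1 (-0.21) and Phb (-0.24). The prohibitins Phb and Phb2 form the ring that holds inner membrane proteases. Yme1l1, whose product cleaves OPA1 beside OMA1, had a log2 difference of -0.01 with an interval from -0.17 to 0.16.

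Letmd1, a relative of Letm1, had the largest difference of the 65 genes. It had 3502, 4481 and 3542 normalized counts in control and 2063, 2036 and 2376 in AKO, with no overlap. Its log2 difference of -0.83 ± 0.11 (standard error) had an adjusted p of 0.0909 with limma and of 3.9e-10 with DESeq2. Ghitm, which encodes another inner membrane ion exchanger, was lower by a log2 difference of -0.30, and Letm2 overlapped (-0.17). Crls1, the cardiolipin synthase, had a log2 difference of -0.39 (adjusted p = 0.241 from limma and 0.0110 from DESeq2). Slmo2, whose product (also PRELID3B) moves lipid between the mitochondrial membranes, had one of -0.32, and the 6 other cardiolipin genes had a p above 0.05, Pgs1 (-0.13) being the next.

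Of 8 fusion partners, March5 (-0.12), Slc25a46 (-0.16) and Fam73b (also Miga2, -0.17) had a p under 0.05 and were lower. Of 10 fission adaptors and regulators tested, 0 had a p under 0.05 in either direction with limma, and the 3 nearest were Mtfp1 (-0.26), Inf2 (-0.13) and Mief2 (-0.19), with a median of -0.04 for the list. Gdap1 and Mtfr2, below the filter, were not tested. Whether the fission list differed from the other lists was not tested. Of 12 import and outer membrane genes, Tomm40 (-0.25), Timm44 (-0.29), Hspa9 (-0.26) and Hspd1 (-0.22) had a p under 0.05, whereas the channel genes Vdac1, Vdac2 and Vdac3 each had a log2 difference of -0.03. For scale, Ucp1 had a log2 difference of -1.75 (adjusted p = 0.0703 from limma). In the rest of the list of 6 thermogenic genes, Elovl3 (-1.64), Dio2 (-1.36), Cox7a1 (-1.07) and Cidea (-0.82) had larger differences than each of the 10 genes. The groups overlapped for Ppargc1a (-0.25), a coactivator of mitochondrial genes. Of these, Elovl3 passed the adjusted threshold (adjusted p = 0.0350 from limma). With DESeq2, the paper reported Ucp1, Dio2, Cidea and Cox7a1 among genes downregulated in AKO iWAT.

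**Figure D5:**
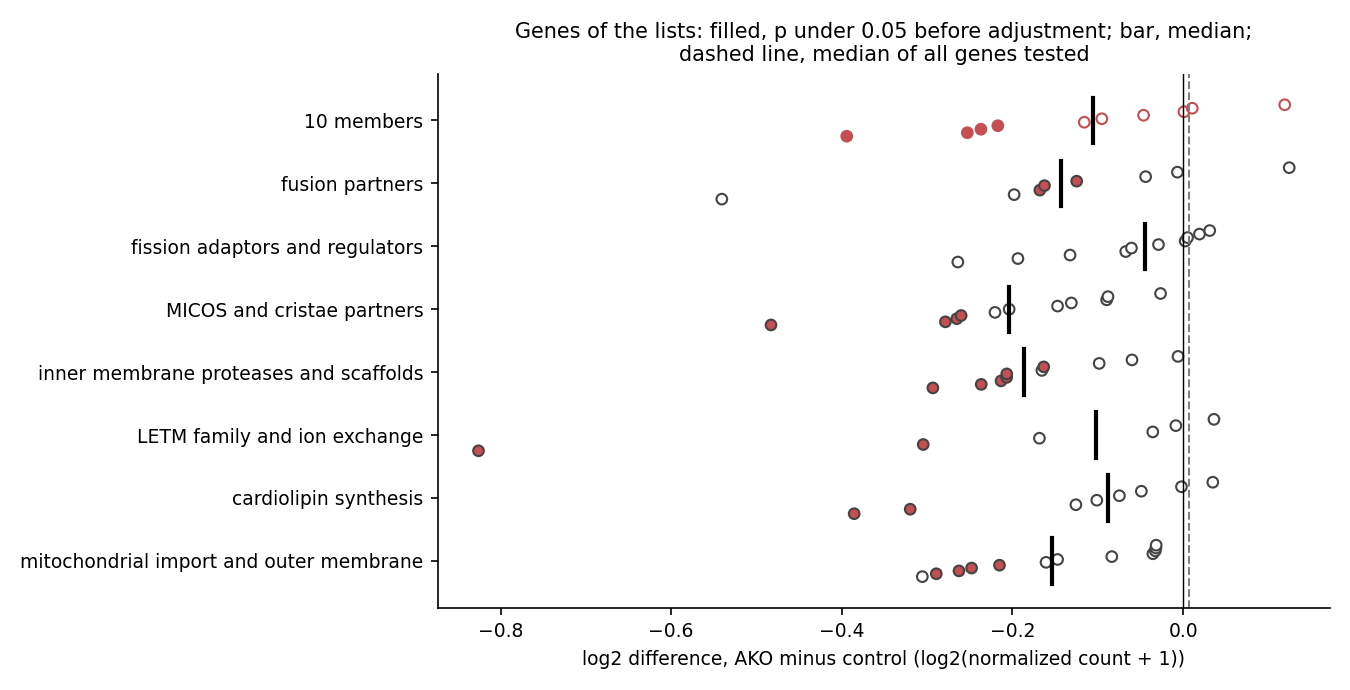
Log2 difference, AKO minus control, of the 10 genes and of 7 lists of related genes, with p under 0.05 before adjustment filled, list medians as bars and the median of all genes tested dashed. All 12 import and outer membrane genes, all 11 MICOS partners and all 10 protease and scaffold genes lie below 0, and no gene above 0 is filled.

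Within each sample, the 10 genes were set against the mean log2 value of the 12 import and outer membrane genes, a comparison chosen after the values were seen and given with no test. That mean itself differed by -0.15 between AKO and control, with overlap. Relative to it, Letm1 (log2 difference -0.24) and Mfn2 (-0.08) were lower in AKO without overlap. Immt (-0.06) and Chchd3 (-0.10) overlapped. Oma1 was higher in AKO without overlap (0.27), and the other 5 genes overlapped. Relative to the mean log2 value of the 10 adipocyte markers, which differed by -0.06, Letm1 (-0.33) was lower without overlap, and Mfn2 (-0.17), Immt (-0.15) and Chchd3 (-0.19) overlapped between the groups. The adipocyte marker sum was lower in AKO without overlap, and the muscle and macrophage marker sums overlapped between the groups. The part of these cell type markers in the differences of the 10 genes was not tested.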

How the data were processed

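RNA-Seq of 3 control and 3 AKO iWAT samples was analyzed. Alignment by the authors used STAR on GRCm38.p6. Genes of GENCODE M25 were counted with featureCounts, and counts were divided by DESeq2 size factors. They deposited this signal per gene and sample, without division by length. The authors' own log2 fold changes, p-values and adjusted p-values, also deposited, were not used.

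Normalized counts were tested with limma (version 3.58.1, R version 4.3.3) on log2(value + 1) with a variance trend, for genes with a mean of at least 10 (13855 genes). The threshold was an adjusted p under 0.05. Fold changes on this scale understate changes of low genes. Values were whole multiples of the value of 1 read (100% within 0.01 of a whole number), which gave whole reads for DESeq2 (version 1.42.0), limma-voom and edgeR (version 4.0.16) as alternatives. Single genes were compared with 2-sided exact permutation tests. The p-values measure the spread between pools of 2 mice. Replicates were not copies of one library, since the chi-square of any 2, divided by its degrees of freedom, was 10.4 to 21.2. The fits were tested on simulated data.

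The 10 genes and all lists were chosen with earlier results of these data known. Named genes were the 10, the 3 smallest p-values of each mitochondrial or thermogenic list and any gene there with p under 0.05, the 2 most abundant markers of each cell type, Nrg4, and the 5 genes most like the 10. Yme1l1 and the Vdac genes were named for their roles after their values were seen. Positions and lengths are from GENCODE M21 (GRCm38), and promoter windows from RefSeq (GRCm38.p6), where all 10 genes matched.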

Additional observations from a re-analysis of the deposited data

How the results depend on the processing

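The 10 genes kept 4 with a p under 0.05 before adjustment, all lower, in every fit of all 6 samples, and 3 to 4 when a sample was left out. The median log2 difference of the 10 stayed between -0.16 and -0.06. DESeq2 on whole reads called 1 of the 10 genes (Letm1), 3 of the related genes and 149 genes in all, against 0, 0 and 2 with limma, and the cause was not tested. With at least 10 normalized counts in every sample 6 genes were called in all. At an adjusted p under 0.1 there were 11, with 1 of the related genes (Letmd1). When any 1 sample was dropped, the calls over all genes ran from 0 to 3. The related genes that were lower with a p under 0.05 ran from 10 (without AKO replicate 1) to 23. There were 11 without control replicate 2 or AKO replicate 3. The genes of the 10 without overlap ran from 4 to 7 (without control replicate 3). The share of all genes without overlap was not computed with a sample left out, where the smaller group separates more readily. The sign changed for genes near 0. Leaving out a sample gave log2 differences from -0.046 to 0.083 for Dnm1l, from -0.056 to 0.069 for Fis1 and from -0.13 to 0.0025 for Mff, and limma-voom gave -0.0017 for Fis1. Control and AKO samples with the same replicate number did not deviate together in every pair (correlations 0.14, -0.35 and 0.24). Pairs with different numbers ran from -0.50 to 0.34. With so few pairs, these values cannot decide whether the replicate number marks a pairing of the samples. With the replicate block, 0 of the 10 genes and 2 genes in all were called, and 24 related genes were lower with a p under 0.05. Depth limits Oma1 most, with 187 to 260 reads a sample.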

Other observations

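The mean profile of the 10 genes over the 6 samples (mean z-score of the log2 values) was highest in control replicate 2 (0.74) and lowest in AKO replicate 2 (-0.48), and the groups did not overlap. The 5 tested genes outside the 10 with the highest Pearson correlation with this profile were Oxnad1 (r = 0.996), Dnaja3 (0.995), Clstn3 (0.994), Man2c1 (0.994) and Acsl5 (0.993), over 6 samples that share the same split into groups. Spearman's rho was 0.94 for Clstn3 and 1 for the other 4. Of 13845 genes, 455 (3.29%) had an r above 0.9, so that a high r with this profile is common. The log2 differences of the 5 genes were -0.31, -0.34, -0.49, -0.12 and -0.60 in the same order. Dnaja3 encodes a mitochondrial co-chaperone, and Acsl5 a fatty acid activating enzyme.

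Among the 10 genes themselves, the 4 that were lower in AKO varied together over the 6 samples, with r from 0.89 (Chchd3 and Mfn2) to 0.96 (Letm1 and Immt), partly through the split into groups. Fis1 and Dnm1l varied in opposite directions (r = -0.86, 6 samples), although neither separated the groups. The ratio of Letm1 to Immt, chosen after the values were seen, was 0.501, 0.546 and 0.476 in control and 0.458, 0.428 and 0.459 in AKO, with no overlap between the groups.

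Of the other cell type markers, the lists for lymphocytes (233 to 1690.0 summed normalized counts) and mammary epithelium (31.2 to 2339) varied over wide ranges in both groups and overlapped. The most abundant markers were Acta1 (log2 difference 3.43) and Myh4 (4.55) for muscle, Lyz2 (0.35) and C1qa (0.39) for macrophages, Cd4 (-0.14) and Cd2 (0.16) for lymphocytes, Krt19 (1.15) and Csn3 (1.47) for mammary epithelium, and Fabp4 (-0.17) and Pnpla2 (-0.22) for adipocytes. With limma 0 of these 10 markers passed the adjusted threshold, and 1, C1qa, had a p under 0.05 before adjustment.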
